A study of Tribolium castaneum with 183 samples.

Results

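The combined stress of heat and drought was examined in whole females of the red flour beetle *Tribolium castaneum* by comparing 43 Hot-Dry females with 47 Control females. Females were taken by the condition in their labels, and these 90 females are part of 183 sequenced in 4 conditions. All were of the strain Cro1 and had an age of 8 weeks according to the labels, while the study's text gives an older age. Control was 33°C and 70% relative humidity, in which the strain had long been kept, and Hot-Dry was 37°C and 30%. The 48 Dry females (33°C, 30%) and the 45 Hot females (37°C, 70%) served to show where the combined stress differed from each single stress. The offspring of each mating pair were split over the conditions, so each of 12 full-sib families had 3 or 4 females in Control and in Hot-Dry. Animals entered the treatment as eggs, and the siblings of 1 family and condition grew up in the same vial. Such females are not independent of each other, and the p-values over single females measure their spread only. Hot-Dry was therefore compared with Control over single females and, as a stricter check, over families, with the counts of each family and condition added up.

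Heat raises the metabolic rate of insects and dry air raises their loss of water. This loss is limited by the cuticle and by ion and water transport in the excretory organs and the gut. Egg production depends on vitellogenins, yolk proteins that the fat body makes and the growing oocytes take up through receptors. In *T. castaneum* juvenile hormone, 20-hydroxyecdysone and nutrient signaling through insulin and TOR control vitellogenin synthesis.

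The reads counted on genes numbered 5406991 to 15533288 per Control female (median 8451638) and 6382307 to 13690047 per Hot-Dry female (median 9057850). Levels are given as cpm, the reads of a gene per 1000000 reads of its library, after TMM normalization, and 3 counts in a library of median size equal 0.349 cpm. This floor allows for counting error alone. Log2 cpm correlated with the mean of the other females of the condition at 0.960 to 0.987 in Control and at 0.944 to 0.987 in Hot-Dry, with medians of 0.983 in both conditions. The 5 females least like their condition were 4 of Hot-Dry and 1 of Control. In 3 of these Hot-Dry females the vitellogenin genes took 0.0756%, 0.111% and 0.375% of the reads, the lowest shares of their condition. Some results are therefore also given without the 5 females. The second principal component of the 90 females, with 11.1% of the variance, ranged from -2.23 to 0.504 SD units in Control and from -0.0862 to 2.08 in Hot-Dry. On it 34 Hot-Dry females lay above every Control female, while the first component (13.5%) did not separate the conditions.

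Nearly as many genes were up-regulated as down-regulated in Hot-Dry, and most changes were small. Of 12113 genes tested, 3722 were differentially expressed (DE, adjusted p of 0.05 or less in edgeR's quasi-likelihood test), which is 30.7% of the genes. Up-regulation was called for 1896 genes (15.7%) and down-regulation for 1826 (15.1%). In absolute terms the DE genes changed by a median of 0.31 on the log2 scale, and 195 up-regulated and 98 down-regulated genes changed by more than 1. In the fit over families, on summed counts with family as a block, 2761 genes (22.8%) were DE, of which 2677 were called in the same direction over single females. Without the 5 females least like their condition 3416 genes were DE. The difference between the family means had the same sign in 12 of 12 families for 540 genes (4.46% of those tested). Among the DE genes there were 330 that were higher and 207 that were lower in Hot-Dry in every family.

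The genes with the largest up-regulation in Hot-Dry were of several kinds, among them a potassium channel gene, a transmembrane transporter gene and genes without annotation in the sources used here. They were taken as the 8 largest log2 fold changes among genes that averaged 5 cpm or more in Control and Hot-Dry and were DE in the same direction over single females and over summed families. All 8 had higher levels than in Dry as well, also over summed families. Against Hot 6 of them were higher over single females, but over summed families only 3 were, TC007314, TC012864 and TC011616. Of all genes tested 32.3% were DE against Dry and 2.28% against Hot. The 8 genes were ranked by their rise in these same Hot-Dry females, which favours the calls against Dry and Hot. In these whole bodies, more cells of a type and more RNA per cell cannot be told apart.

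TC007314, a gene without annotation here, was at 0 to 14.1 cpm in Control (median 1.31) and at 2.89 to 91.3 cpm in Hot-Dry (median 31.9). All 43 Hot-Dry females were above the Control median, and 33 were above the highest Control female. Its mean was 2.56 ± 3.06 cpm in Control and 33.0 ± 21.3 in Hot-Dry (SD, n = 47 and 43), a log2 fold change of 3.67 ± 0.34 (SE, adjusted p = 9.3e-19, edgeR quasi-likelihood test). The gene was also DE in both single stresses, with 2.14 in Dry and 1.73 in Hot. Hot-Dry exceeded Hot by 1.94 ± 0.31 (adjusted p = 4.51e-06) and Dry by 1.53 ± 0.30 (adjusted p = 1.39e-05). Family differences ranged from 2.02 to 6.11 on the log2 scale, so the gene rose in 12 of 12 families.

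TC005951, likewise without annotation here, had the most reads of the 8 genes. Its level was 18.6 to 1658 cpm in Control (median 144.9) and 620.7 to 6030 cpm in Hot-Dry (median 2181). The conditions overlapped, but 30 of 43 Hot-Dry females lay above every Control female, and no Hot-Dry female was below the Control median. The log2 fold change was 3.03 ± 0.34 (adjusted p = 2.96e-13, edgeR), from 328.1 ± 409.6 to 2672 ± 1475 cpm. In the single stresses it was 2.07 in Hot (adjusted p = 1.89e-07) and 1.73 in Dry (adjusted p = 0.000379). Hot-Dry exceeded Dry by 1.30 ± 0.32 (adjusted p = 0.000773), and its difference from Hot of 0.95 ± 0.33 did not pass the test (adjusted p = 0.104).

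TC011616 carries the terms inward rectifier and voltage-gated potassium channel activity, and inward rectifier channels move potassium ions through the membranes of transporting epithelia of insects. Its level was 10.9 to 638.2 cpm in Control (median 86.6) and 64.5 to 3010 cpm in Hot-Dry (median 424.3). Only 11 Hot-Dry females were above the highest Control female, while 38 of 43 exceeded the Control median. The mean increased from 110.3 ± 117.0 to 520.2 ± 510.1 cpm, with a log2 fold change of 2.24 ± 0.28 (adjusted p = 2.06e-11, edgeR), and the gene rose in 12 of 12 families. It was called in Hot with 1.15 (adjusted p = 0.000513) and not in Dry with 0.19 (adjusted p = 0.939). Hot-Dry was above Hot by 1.09 ± 0.28 (adjusted p = 0.0112).

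TC012864, without annotation here, had a similar order of the 4 conditions. It was at 0 to 135.7 cpm in Control (median 6.31) and 7.39 to 379.6 cpm in Hot-Dry (median 47.6). A single Control female had the highest Control value, so only 3 Hot-Dry females lay above that condition's range, but all 43 were above its median. The log2 fold change of 2.57 ± 0.32 (adjusted p = 1.15e-11, edgeR) compared with 1.30 in Hot and 0.09 in Dry, and the difference from Hot was 1.27 ± 0.31 (adjusted p = 0.00675). TC015480, with the term transmembrane transporter activity, was at 0 to 8.96 cpm in Control (median 1.34) and 0.384 to 42.8 cpm in Hot-Dry (median 9.05). Of the Hot-Dry females 22 were above every Control female, and the log2 fold change was 2.75 ± 0.34 (adjusted p = 9.02e-12, edgeR). It was 1.67 in Hot, where the gene was DE, and 1.17 in Dry, where it missed the threshold (adjusted p = 0.0565).

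The 3 remaining genes with large rises were at high levels in some females and at or near 0 in others. TC006158 had 0 counts in 41 of 47 Control and 9 of 43 Hot-Dry females, with medians of 0 and 1.72 cpm and highest values of 0.552 and 666 cpm. The 5 highest Hot-Dry females held 76.6% of the cpm summed over that condition. TC006157 ranged up to 4.91 cpm in Control and up to 931 cpm in Hot-Dry, with medians of 0.122 and 4.35 cpm. In 25 Hot-Dry females TC006158 was above the highest Control female, and in 21 TC006157 was. The log2 fold changes were 10.52 ± 0.93 for TC006158 and 8.29 ± 0.77 for TC006157 (adjusted p = 1.33e-19 and 1.8e-18, edgeR), and 5.98 and 5.43 in limma-voom. The family means were higher in Hot-Dry in 11 of 12 families for TC006158 and in 12 of 12 for TC006157. These counts include families 245 and 496 for TC006158 and families 245 and 863 for TC006157. There all females of both conditions were below the floor, and the differences of 0.00852 to 0.327 in log2 cpm lie within counting error. The difference from Hot was called for neither gene over summed families (adjusted p = 0.205 and 0.246). TC002209 was at 0 in 10 Control and 10 Hot-Dry females, and its median was 3.31 cpm in Control and 162.8 cpm in Hot-Dry. It rose by 4.19 ± 0.62 (adjusted p = 1.31e-08, edgeR), with 27 Hot-Dry females above the Control range, and its value in Hot was close by at 3.68. In families 245 and 496 it was slightly lower in Hot-Dry, by 0.181 and 0.310 in log2 cpm.

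**Figure D1:**
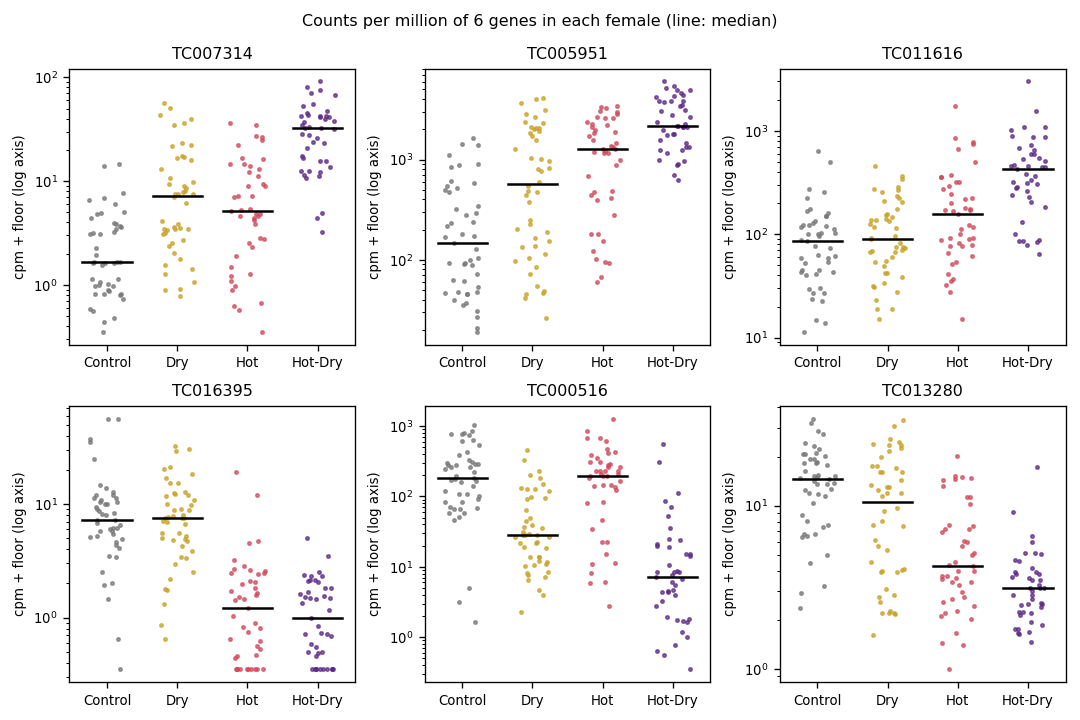
Level in cpm of 6 genes in each female of the 4 conditions, on a log axis with 0.349 cpm (the floor) added, so a female with 0 counts sits at the floor, and a line marks each median. In TC007314, TC005951 and TC011616 the Hot-Dry females sit highest, in TC016395 the Hot and Hot-Dry females sit low together, and in TC000516 the Dry and Hot-Dry females do, with medians of 27.8 and 6.92 cpm.

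The 8 genes with the largest down-regulation differed in their response to the single stresses. In Hot alone 2 of them were down-regulated, in Dry alone 3 were, and 3 were called in neither. Of the 8 genes 7 were lower in Hot-Dry than in Hot, and 4 were lower than in Dry. Over summed families these counts were 3 (TC000516, TC010352 and TC002466) and 3, so the differences from Hot given below for TC013280, TC003990, TC006455 and TC016372 rest on the test over single females. Of all genes tested 2.28% were DE against Hot and 32.3% against Dry. The 8 genes were ranked by their fall in these same Hot-Dry females, which favours the calls against Hot and Dry. Control and Hot-Dry overlapped in all 8 genes.

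TC016395 had the largest fall, from 0 to 56.5 cpm in Control (median 6.96) to 0 to 4.64 cpm in Hot-Dry (median 0.651). No Hot-Dry female was above the Control median. It fell by 3.50 ± 0.36 on the log2 scale (adjusted p = 5.89e-16, edgeR), and the family differences lay between -4.74 and -2.22. The change was -2.61 in Hot (adjusted p = 5.72e-11) and -0.22 in Dry (adjusted p = 0.931), and Hot-Dry was not called against Hot (-0.89, adjusted p = 0.205). TC013280 was similar, with 2.03 to 33.8 cpm in Control (median 14.3) and 1.11 to 17.0 cpm in Hot-Dry (median 2.78). In 12 Hot-Dry females it was below the lowest Control female, and it fell by 2.13 ± 0.23 (adjusted p = 8.68e-15, edgeR) and in 12 of 12 families. It was called in Hot (-1.30) and not in Dry (-0.36, adjusted p = 0.693), and it was lower in Hot-Dry than in Hot by -0.83 ± 0.23 (adjusted p = 0.0217).

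TC000516, which has no annotation here, differed from these genes because its level in Hot was close to that in Control. It was at 1.29 to 1045 cpm in Control (median 179.7), 2.44 to 1275 cpm in Hot (median 194.8), 1.90 to 459.6 cpm in Dry (median 27.8) and 0 to 546.1 cpm in Hot-Dry (median 6.92). Only 2 of 43 Hot-Dry females exceeded the Control median. The log2 fold change in Hot-Dry was -3.02 ± 0.44 (adjusted p = 4.08e-09, edgeR), against -2.11 in Dry (adjusted p = 0.000392) and -0.16 in Hot (adjusted p = 0.813). Hot-Dry was below Hot by -2.86 ± 0.43 (adjusted p = 1.08e-06) and was not called against Dry (-0.91 ± 0.40, adjusted p = 0.0719). The gene was lower in Hot-Dry in 11 of 12 families.

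A pair of genes for enzymes that cleave glycosidic bonds had this order too. In the other direction, a list of 42 genes with the term for O-glycosyl compounds, chosen by the study for their rise in these females, had a median log2 fold change of 0.68 in Hot-Dry. TC003990, with the term hydrolase activity on glycosyl bonds, was at 4.64 to 683.1 cpm in Control (median 102.4) and 1.16 to 210.5 cpm in Hot-Dry (median 22.4). In 9 Hot-Dry females it was below all Control females. It fell by 2.05 ± 0.31 (adjusted p = 3.06e-08, edgeR), beside -1.68 in Dry (adjusted p = 0.000146) and -0.38 in Hot (adjusted p = 0.38). TC002466, which carries the narrower term for O-glycosyl compounds, was at 0 to 134.3 cpm in Control (median 19.1) and 0.730 to 51.0 cpm in Hot-Dry (median 5.65). Its change was -1.89 ± 0.32 in Hot-Dry (adjusted p = 5.58e-07, edgeR), -1.35 in Dry (adjusted p = 0.00614) and 0.07 in Hot (adjusted p = 0.893). Against Hot the difference was -1.67 ± 0.31 for TC003990 and -1.96 ± 0.32 for TC002466 (adjusted p = 0.000137 and 8.71e-06), and against Dry neither was called. TC002466 was lower in 9 of 12 families only.

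TC010352, TC006455 and TC016372 have no annotation here and were also lower in Hot-Dry than in Hot. TC010352 fell from a median of 45.7 cpm (2.36 to 260.8) to 6.25 cpm (0 to 125.3), by 1.94 ± 0.37 on the log2 scale (adjusted p = 6.54e-06, edgeR). Neither Dry (-0.92, adjusted p = 0.244) nor Hot (0.08, adjusted p = 0.906) was called for this gene, while Hot-Dry was below both, by -1.02 (adjusted p = 0.0188) and -2.02 (adjusted p = 7.93e-05). TC006455 had medians of 7.12 cpm in Control (0.410 to 64.9) and 1.55 cpm in Hot-Dry (0 to 26.5) and fell by 2.37 ± 0.37 (adjusted p = 3.53e-08, edgeR). It was again called in neither single stress, with -1.07 in Dry and -0.54 in Hot. TC016372 had 0 counts in 13 Control and 15 Hot-Dry females, and 17 Hot-Dry females were above the Control median of 0.396 cpm. Its log2 fold change of -2.52 ± 0.60 (adjusted p = 0.000392, edgeR) rests on high values in some Control females, up to 108.2 cpm, and in limma-voom it was -1.52 and not called (adjusted p = 0.0921).

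**Figure D2:**
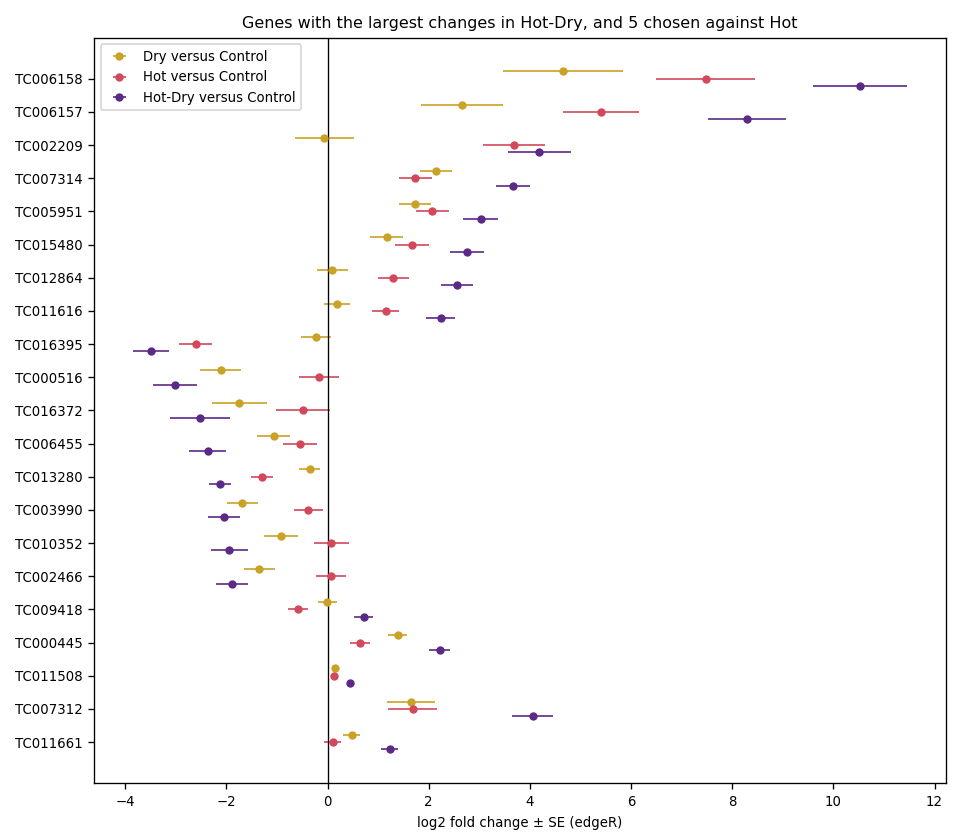
Log2 fold changes against Control with their SE in Dry, Hot and Hot-Dry for the 16 genes with the largest changes in Hot-Dry and for 5 genes taken by their test against Hot or their interaction. The 3 comparisons share the Control females. TC016395 and TC013280 changed in Hot (-2.61 and -1.30) and little in Dry, whereas TC000516, TC003990 and TC002466 changed in Dry (-2.11, -1.68 and -1.35) and lay near 0 in Hot.

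Hot-Dry and Hot differed in few genes, and Hot-Dry and Dry in many. Against Hot 276 genes were DE (2.28%), and against Dry 3910 (32.3%). The count against Hot depended on the treatment of families. It was 437 with the replicate numbers as a block, 547 with family as a block and 46 with counts summed per family and condition. Without family 710 it was 154, and without family 638 it was 168.

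The 4 DE genes with the lowest p against Hot were all up-regulated in Hot-Dry and stayed called in the summed counts. TC000445 had medians of 5.95 cpm in Control (0.756 to 20.2), 15.5 in Dry (2.63 to 41.1), 7.75 in Hot (0.950 to 29.2) and 26.0 in Hot-Dry (5.85 to 120.8). In 31 of 43 Hot-Dry females it was above the Control range. The log2 fold change against Control was 2.22 ± 0.20 (adjusted p = 3.47e-19, edgeR), 1.57 ± 0.20 against Hot (adjusted p = 1.94e-09) and 0.83 ± 0.19 against Dry (adjusted p = 0.0002). TC011508 varied little among females of a condition and increased from 58.8 ± 6.25 cpm in Control (45.3 to 75.9) to 80.0 ± 12.3 in Hot-Dry (58.4 to 107.7), with 64.9 ± 7.33 in Dry and 64.4 ± 9.54 in Hot (SD, n = 47, 43, 48 and 45). Its log2 fold change of 0.45 ± 0.04 (adjusted p = 3.47e-19, edgeR) was thus small but 25 Hot-Dry females were above every Control female. TC011661 rose from a median of 1.29 cpm (0.488 to 4.00) to 2.82 cpm (0.775 to 10.0), by 1.23 ± 0.17 (adjusted p = 7.09e-10, edgeR), and was called in neither Hot (0.10) nor Dry (0.48). TC007312 had 0 counts in 34 of 47 Control and 4 of 43 Hot-Dry females, with a Hot-Dry median of 0.591 cpm near the floor and a log2 fold change of 4.05 ± 0.41 (adjusted p = 2.7e-16, edgeR). None of these genes has an annotation here.

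An interaction, in which the effect of dry air differs between 33°C and 37°C, was called for 1 gene by edgeR, and 524 genes had an unadjusted p under 0.05. DESeq2 called 2 genes, and limma-voom and the summed counts (356 at an unadjusted p under 0.05) called 0. The gene was TC009418, without annotation here, with medians of 1.03 cpm in Control (0 to 4.01), 1.07 in Dry (0 to 3.08), 0.664 in Hot (0 to 2.58) and 1.59 in Hot-Dry (0.293 to 5.42). It was higher in Hot-Dry than in Control by 0.71 ± 0.19 and lower in Hot by -0.58 ± 0.20 (adjusted p = 0.00161 and 0.0217, edgeR). The interaction was 1.30 ± 0.27 (adjusted p = 0.0471). Of the 16 genes with the largest changes 0 had an interaction that passed the test in edgeR, DESeq2 or limma-voom, and 3 had an unadjusted p under 0.05.

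Among the genes with the most reads, those that fell in Hot-Dry were led by both vitellogenins. Vg1 (TC013602) was at 15570 to 263100 cpm in Control (median 102100) and at 295.9 to 152100 cpm in Hot-Dry (median 71630), a log2 fold change of -0.66 ± 0.17 (adjusted p = 0.00154, edgeR). Vg2 (TC010839) fell by 0.82 ± 0.18 (adjusted p = 0.000111), from a median of 82640 to 46050 cpm. Together they took 17.6% ± 5.18 of the reads in Control and 11.5% ± 4.94 in Hot-Dry (SD, n = 47 and 43), and in Hot and Dry they took 14.4% and 17.9%. The conditions overlapped widely, yet 5 Hot-Dry females had less Vg1 than any Control female. Family 245 and family 799 had slightly more Vg1 in Hot-Dry than in Control. Without the 5 females least like their condition the changes were -0.57 for Vg1 and -0.74 for Vg2, and limma-voom gave -1.03 for Vg1.

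TC007186, TC007776 and TC016271 are the next genes of this kind and have no annotation here. The Hot-Dry females that were lowest in the vitellogenins, female 1 of family 1077, female 4 of family 293 and female 4 of family 638, were also the 3 lowest in each of these genes. TC007186 was at 1643 to 38770 cpm in Control (median 20330) and at 30.9 to 31000 cpm in Hot-Dry (median 14820). It fell by 0.68 ± 0.21 (adjusted p = 0.00902, edgeR), and its family means were lower in 12 of 12 families. TC007776 fell by 0.61 ± 0.18 (adjusted p = 0.00494), from a median of 17660 to 12160 cpm, and had about the same change in Hot (-0.59). TC016271 fell by 0.77 ± 0.22 (adjusted p = 0.00352), from a median of 10400 to 6068 cpm, and its value in Hot was -0.14 (adjusted p = 0.683). Without the 5 females the 3 changes were -0.61, -0.51 and -0.69, and all stayed DE (adjusted p = 0.0063, 0.002 and 0.000772, edgeR). Their part in the results was otherwise not tested. In limma-voom the changes were larger, with -1.39 for TC007186 and -1.13 for TC007776.

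The rising genes with the most reads changed moderately and did not separate the conditions. TC015373, with the term extracellular region, was at 1157 to 18370 cpm in Control (median 4391) and 3534 to 16250 cpm in Hot-Dry (median 6030). It rose by 0.51 ± 0.12 (adjusted p = 0.00041, edgeR), but only in 8 of 12 families. TC008058, annotated with oxidoreductase activity, rose by 0.44 ± 0.09 (adjusted p = 2.82e-05), from 4604 ± 1182 to 6232 ± 1944 cpm, and its values were 0.09 in Hot and 0.07 in Dry. Hot-Dry exceeded Hot in this gene by 0.35 ± 0.09 (adjusted p = 0.0116, edgeR). TC002415, a gene of an integral membrane component, rose by 0.46 ± 0.07 (adjusted p = 4.23e-09) and in 12 of 12 families, and 20 Hot-Dry females were above its Control range of 1505 to 3417 cpm. TC002483 and TC005924, without annotation here, rose by 0.59 ± 0.11 and 0.36 ± 0.07 (adjusted p = 1.78e-06 and 6.75e-06). TC005924 had about the same value in Hot, 0.39.

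Genes known for egg production were mostly lower in Hot-Dry or not called. Of 55 genes from the study's list of egg production and its hormonal control, all tested, 25 were down-regulated (45.5%, against 15.1% of all genes), 2 were up-regulated (3.64%, against 15.7%) and 28 were not called. Their median log2 fold change was -0.16, beside -0.01 for all genes tested, and it was -0.08 in Hot and 0.00 in Dry. In Hot 19 of the genes were down-regulated, while 25.1% of all genes tested were DE in Hot in either direction. In Dry edgeR, DESeq2 and limma-voom called 0 genes, with 2 at an unadjusted p under 0.05. Between Hot-Dry and Hot edgeR and limma-voom called 0 of the 55 genes and DESeq2 called 1, with 9 at an unadjusted p under 0.05 in edgeR. Of all genes tested edgeR called 0.809% in Dry and 2.28% between Hot-Dry and Hot, so calls of 0 lie near these shares. With summed counts 24 of the 55 genes were down-regulated and 0 up-regulated in Hot-Dry versus Control, with 2 higher at an unadjusted p under 0.05.

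The vitellogenin receptors carry yolk proteins into the oocyte. VgR (TC008595) decreased from 82.8 ± 16.2 to 65.6 ± 12.5 cpm (SD, n = 47 and 43), a log2 fold change of -0.33 ± 0.06 (adjusted p = 9.05e-06, edgeR), with ranges of 49.8 to 121.1 and 27.2 to 100.8 cpm. VgR-1 (TC004042) fell by 0.35 ± 0.07 and VgR-2 (TC008596) by 0.27 ± 0.05, and VgR2 (TC008425) was not called at -0.28 ± 0.14 (adjusted p = 0.104). The ranges of both conditions overlapped widely, with medians of 84.3 and 65.7 cpm for VgR.

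Of the 7 juvenile hormone genes 2 were called, both lower (28.6%, against 15.1% of all genes for down-regulation and 30.7% for either direction), a share near that of all genes called. A gene for juvenile hormone acid methyltransferase, an enzyme of hormone synthesis (JHAMT, TC008471), fell by 0.38 ± 0.13 (adjusted p = 0.0212, edgeR). Its range was 0.756 to 6.79 cpm in Control and 0.595 to 4.38 cpm in Hot-Dry. The hormone's receptor Met (TC003908) changed by -0.25 ± 0.10 (adjusted p = 0.0467), and this call was lost in 13 of 24 alternatives, among them the one without the 5 females least like their condition (adjusted p = 0.122). The second JHAMT (TC008469), Kr-h1B and the genes of hormone degradation, JHE and both JHEH, had values between -0.19 and 0.08 and were not called.

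Of 16 genes of ecdysteroid synthesis and response and other nuclear receptors, 7 fell and 1 rose, beside 15.1% and 15.7% of all genes tested. Disembodied (TC014691), a P450 enzyme of ecdysteroid synthesis, was at 149.3 to 244.3 cpm in Control (median 201.1) and 109.7 to 197.4 cpm in Hot-Dry (median 166.6). No Hot-Dry female exceeded the Control median, and the gene fell by 0.29 ± 0.04 (adjusted p = 1.01e-11, edgeR) and in 12 of 12 families. The P450 enzymes Shade (TC011231), which makes the active hormone, and Phantom (TC001916) fell by 0.25 ± 0.06 and 0.24 ± 0.08 (adjusted p = 0.000564 and 0.0101). Among receptors, FTZ-F1 (TC002550) fell by 0.37 ± 0.07, the ecdysone receptor EcR (TC012112) by 0.28 ± 0.08, and SVP (TC001722) by 0.27 ± 0.08. HR39 (TC014986) at -0.14 and E78 (TC003935), which rose by 0.22 ± 0.08, were called over single females (adjusted p = 0.021 and 0.0337) but not in the summed counts (adjusted p = 0.0634 and 0.0617). Shadow, both Spookier genes, USP, HR4, HR38, HR78 and E75 were not called.

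In nutrient signaling GATA-1 (TC010405), a transcription factor, had the largest change. It fell by 0.34 ± 0.06 (adjusted p = 2.75e-07, edgeR), from 210.3 ± 37.0 to 165.8 ± 33.0 cpm. Both genes of the kinase TOR fell, TC005546 by 0.22 ± 0.04 and in 12 of 12 families and TC009906 by 0.22 ± 0.07, and the kinase Akt (TC007749) fell by 0.14 ± 0.03. S6K1 (TC011817), a kinase downstream of TOR, was called as higher by 0.19 ± 0.06 (adjusted p = 0.014), but not in the summed counts (adjusted p = 0.0633). InR, PI3K, Foxo, Tsc, S6K2 and both RHEB genes were not called.

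Of 14 putative ovarian genes 7 were down-regulated (50%, against 15.1% of all genes tested), with log2 fold changes of -0.29 to -0.15. Vasa (TC010103), an RNA helicase of the germline, fell by 0.21 ± 0.06 (adjusted p = 0.00353, edgeR), and its range was 61.8 to 136.9 cpm in Control and 30.6 to 109.8 cpm in Hot-Dry. Piwi (TC008711) and Spindle E (TC014516), which silence transposons in the germline of *Drosophila*, fell by 0.15 ± 0.03 and 0.19 ± 0.04. The remaining called genes were TC003416 and TC010546 of unknown function, an RNA-binding protein (TC011262) and Mago nashi (TC016112). The summed share of the 14 genes was 0.106% to 0.189% of the reads in Control and 0.112% to 0.173% in Hot-Dry, with medians of 0.142% and 0.138%. These shares are of all reads without TMM normalization. They depend on the share of the vitellogenins too and cannot be set against the log2 fold changes. Above 0 counts in all females were 13 of the 14 genes. The females therefore expressed ovarian genes in both conditions, and whether the smaller levels come from less ovarian tissue or from less RNA per cell cannot be told apart.

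**Figure D3:**
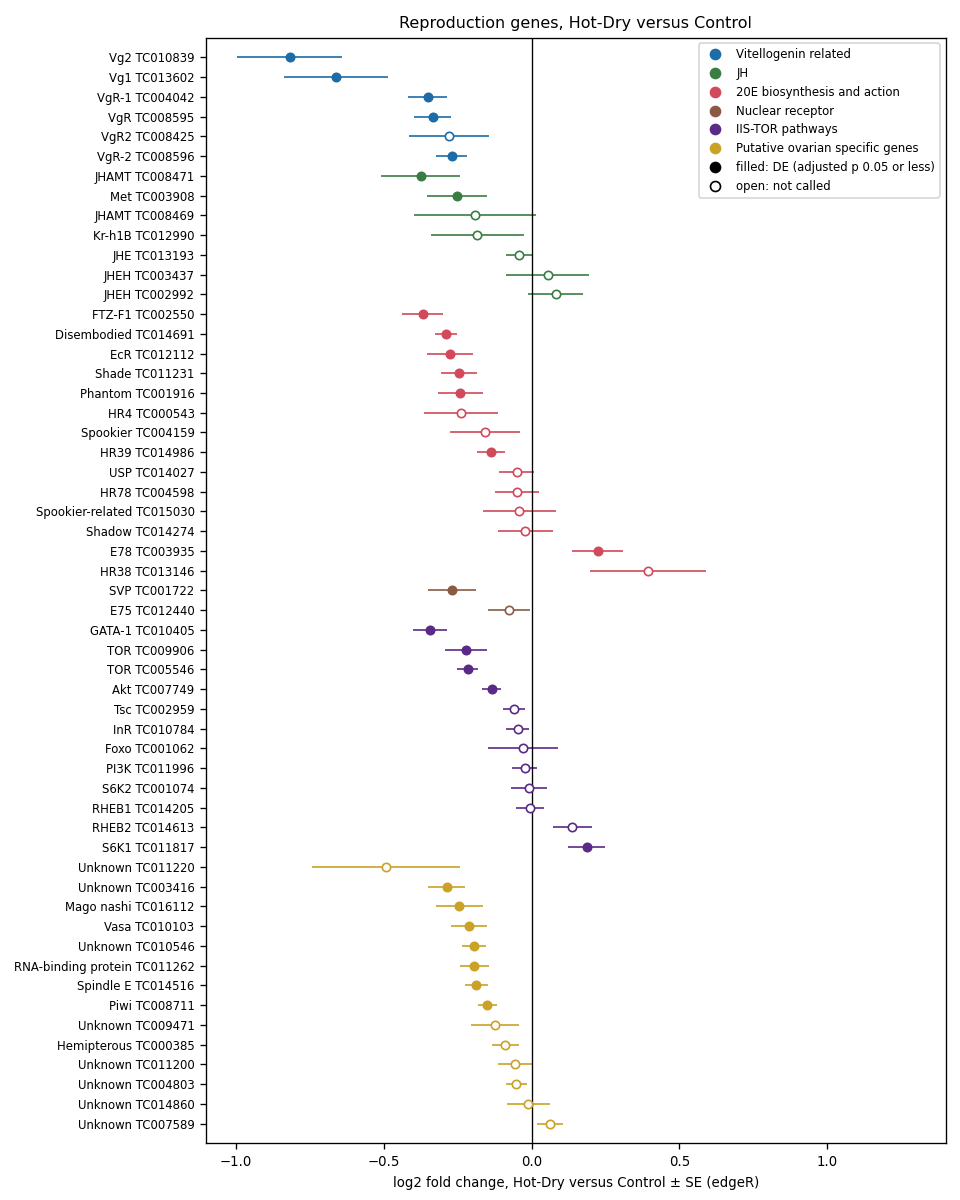
Log2 fold change of 55 genes of egg production in Hot-Dry versus Control with its SE, coloured by process, with filled points for DE genes. Filled points lie left of 0 for 25 genes, led by Vg2 (-0.82) and Vg1 (-0.66), and right of 0 for E78 and S6K1.

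For chitin, ion channels, energy metabolism and kinases the gene lists came from the study's own enrichment analysis of these females. They hold genes that the study found DE, so the direction of their members is no independent evidence and their counts are not read against the background. The chitinases had the largest median of the enzyme lists, 1.38 over 13 genes in Hot-Dry, beside 0.96 in Hot and -0.01 in Dry. Chitinases break down chitin, the polysaccharide of cuticle and gut lining. TC009180 was at 19.1 to 136.1 cpm in Control (median 55.2) and 14.3 to 393 cpm in Hot-Dry (median 177.9), and 31 Hot-Dry females were above the Control range. It rose by 1.59 ± 0.18 (adjusted p = 1.2e-13, edgeR) and in 12 of 12 families. TC009178, TC009179 and TC009627 rose by 1.43 ± 0.23, 1.14 ± 0.18 and 1.44 ± 0.23. Between Hot-Dry and Hot edgeR, DESeq2 and limma-voom called 0 of the 13 chitinases, and 0 had an unadjusted p under 0.05, while all 13 were higher than in Dry by edgeR. Of all genes tested 2.28% were DE against Hot and 32.3% against Dry. The choice of the list from these same Hot-Dry females favours the calls against Dry.

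The chitin-binding genes TC003274 and TC003275 rose by 1.77 ± 0.26 and 1.17 ± 0.19 (adjusted p = 9.45e-09 and 1.46e-07, edgeR). TC003275 was at 26.4 to 1973 cpm in Control (median 588.7) and at 373.6 to 3801 cpm in Hot-Dry (median 1435), with overlap of most females. The exception in relation to Hot was TC011724, which was at 16.9 ± 4.05 cpm in Control, 21.2 ± 5.82 in Hot and 26.3 ± 6.07 in Hot-Dry (SD, n = 47, 45 and 43). It was the only one of 24 chitin-binding genes that was higher in Hot-Dry than in Hot, by 0.31 ± 0.07 (adjusted p = 0.00475).

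Potassium channel genes set the membrane potential of nerve and muscle and move ions in epithelia, and the 20 genes of that list had a median of 0.47. Apart from TC011616 their changes were moderate. TC000334 rose from 80.7 ± 25.7 to 149.2 ± 59.8 cpm, by 0.89 ± 0.12 (adjusted p = 4.01e-10, edgeR), and 18 Hot-Dry females were above its highest Control female of 146.2 cpm. TC013190, a voltage-gated channel gene, rose by 0.68 ± 0.09 (adjusted p = 3.94e-10), and TC006707, TC001199 and TC006708 of the inward rectifier list rose by 0.49 ± 0.09, 0.57 ± 0.10 and 0.63 ± 0.15. TC011616 was the only gene of the 20 that was higher in Hot-Dry than in Hot. Channels of the postsynaptic membrane, which answer to transmitters, had a median of 0.34 over 19 genes. TC001185 rose in this list from 8.61 ± 2.14 to 13.3 ± 4.16 cpm, by 0.63 ± 0.07 (adjusted p = 1.32e-12), and all 43 Hot-Dry females exceeded the Control median of 8.29 cpm.

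The tricarboxylic acid cycle oxidizes acetyl groups in the mitochondria, and its 11 listed genes had a median of 0.27. TC030624, with the terms oxidoreductase activity and tricarboxylic acid cycle, was at 209.4 to 531.8 cpm in Control (median 340.8) and 360.4 to 693.6 cpm in Hot-Dry (median 488.6). Every Hot-Dry female was above the Control median. It rose by 0.55 ± 0.06 (adjusted p = 4.2e-16, edgeR) and in 12 of 12 families, with 0.36 in Hot and 0.04 in Dry. Beside 2.28% of all genes tested that were DE against Hot, 3 of the 11 genes were higher in Hot-Dry than in Hot. They were TC030624 (0.19 ± 0.06, adjusted p = 0.0449), TC004962 (0.27 ± 0.05, adjusted p = 0.000113) and TC007374 (0.57 ± 0.16, adjusted p = 0.0277). The difference from the chitinases in this respect was not tested, and the list was chosen from these same Hot-Dry females. In the summed counts these 3 differences from Hot did not pass the test (adjusted p = 0.425, 0.11 and 0.252).

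The viral capsid list held 7 genes with a median of 1.44 in Hot-Dry, 1.06 in Hot and 0.47 in Dry. TC016350 was at 17.4 to 631.9 cpm in Control (median 190.2) and at 21.3 to 1496 cpm in Hot-Dry (median 396.8). It rose by 1.19 ± 0.25 (adjusted p = 5.24e-05, edgeR), and TC016345, TC016347 and TC016348 rose by 1.56 ± 0.30, 1.58 ± 0.32 and 1.44 ± 0.27. Reads of near-identical copies could be split among such genes in the counting, so their single values are uncertain. The kinases were the only one of these lists that fell, with a median of -0.18 over 38 genes of protein serine/threonine kinases. TC004142 fell by 0.33 ± 0.04 (adjusted p = 7.11e-11), from 40.2 ± 5.29 to 31.9 ± 4.32 cpm, and in 12 of 12 families. In 14 Hot-Dry females it was below all Control females.

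In the DE genes the 12 families responded largely in the same direction. The share of the 3722 DE genes whose family difference had the direction of the whole ranged from 77.1% in family 1077 to 91.0% in family 638, which is a description, since the same females made the calls. The 16 genes with the largest changes were chosen from the same females, partly by the fit over families, so their agreement is only descriptive. Among them 8 families had all 16 differences in the common direction. Family 245 went against it in 5 genes and family 496 in 4, each with 4 Control and 3 Hot-Dry females. Both counts include TC002209, whose sign lay within counting error in family 245 and rested on a female at 0 in family 496. Family 245 had higher TC002466 (by 0.892 in log2 cpm), TC003990 (0.574), TC010352 (0.593) and TC016372 (1.503) in Hot-Dry than in Control. Its share of DE genes in the common direction was 90.8%, the second highest. The largest difference against the common direction among the 16 genes was 2.323, for TC002466 in family 638.

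**Figure D4:**
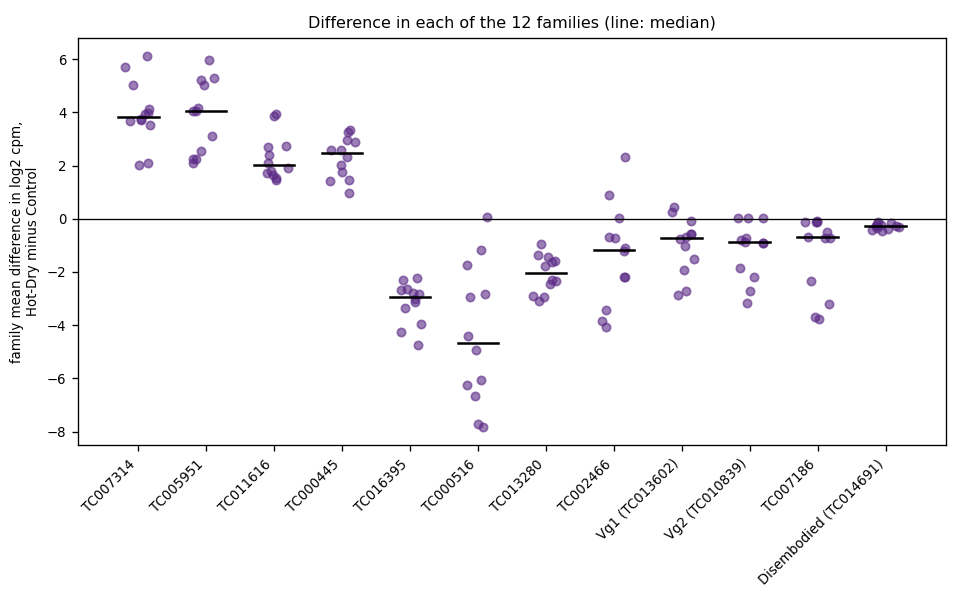
Difference of the family means in log2 cpm, Hot-Dry minus Control, for 12 genes in each of 12 families, with a line at the median. All points lie above 0 for TC007314, TC005951, TC011616 and TC000445 and below 0 for TC016395, TC013280, TC007186 and Disembodied, while TC000516 has 1 family, TC002466 and Vg2 have 3 and Vg1 has 2 families above 0.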

How the data were processed

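Whole-body RNA of each female made 1 library. The authors deposited a table of raw read counts per gene, and per the labels STAR 2.5 and featureCounts were used. By the study's methods, the reads were trimmed and mapped to the Tcas3 assembly from Ensembl Genomes. The treatment of strand and of reads with several matches in the counting is not given in the sources used here, so near-identical or overlapping genes are uncertain. All 183 columns matched a label. The table holds 17078 genes, of which 824 were at 0 in all females.

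A gene entered the tests when 5 or more females exceeded 0.5 cpm (12113 genes). Tests used edgeR 4.0.16 in R 4.3.3: TMM factors (0.710 to 1.29 in Control and Hot-Dry), 1 mean per condition over all 183 females, quasi-likelihood tests, and Benjamini-Hochberg adjustment over the genes tested in each comparison. The SE is the absolute log2 fold change over the square root of F. Log2 cpm had a prior count of 2. The procedure was tested on simulated counts of independent females. These held no likeness within families, so that test cannot judge the p-values over single females. Alternatives were other normalizations and filters, DESeq2 1.42.0, limma-voom (limma 3.58.1), blocks by family or by the replicate number, summed counts, library size as a covariate, and leaving out each family. Leaving out the 5 females least like their condition was added after seeing the data.

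Families were read from the number before the hyphen in each name. The replicate number (both numbers) recurs in Control and Hot-Dry for 42 pairs, whose deviations from the condition means correlated at 0.165 on average, against 0.176 for other pairs of a family and -0.0153 between families. The likeness thus lay in the family.

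Genes named are the 8 largest rises and falls and the 5 most abundant of each direction among 2013 genes (at least 5 cpm, DE in both fits), all reproduction genes except 1 that is not reported here, up to 4 genes with the lowest p of each list, and up to 4 genes with the lowest p for the interaction and against Hot. These rules and lists were chosen with earlier results of these data known. Lists by gene description, cell type markers among them, could not be applied, since only 1 of 17078 identifiers was found in the RefSeq table, so terms come from the study's supplement. Vitellogenins and ovarian genes were the only check of the tissue.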

Additional observations from a re-analysis of the deposited data

Results flagged for a closer look

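TC009418 stood out because the effect of dry air on it differed between the temperatures by a test of the difference itself, with an interaction of 1.30 on the log2 scale (SE 0.27, adjusted p = 0.0471, edgeR quasi-likelihood test). Dry air changed it by -0.01 at 33°C and by 1.29 at 37°C. Over 23 alternatives the interaction ranged from 1.18 to 1.44, and 10 of them called it (adjusted p from 0.0128 to 1). Its medians lay between 0.664 and 1.59 cpm, a few times the floor.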

How the results depend on the processing

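The genes DE in Hot-Dry versus Control numbered 2761 to 4507 under the alternatives that kept all families and 3288 to 3763 when a family was left out, each within 1.5 times the reported count, which also held for the up-regulated, the down-regulated and the genes DE against Dry. With the replicate block 4257 genes were DE, 2078 up and 2179 down. The block changed no call of a named DE gene and added HR38. Genes DE against Hot numbered 437 with the replicate block, 547 with the family block, 118 in limma-voom, 46 in summed counts and 154 to 339 without 1 family. Genes with an interaction numbered 0 with the replicate block, RLE normalization, summed counts, library size as a covariate and limma-voom, 2 without a filter on low counts and in DESeq2, and 0 to 3 without 1 family. Of 89 named DE genes 82 were called in every alternative, and the 7 others were Met, E78, JHAMT (TC008471), HR39, S6K1, Mago nashi and TC016372. No named DE gene changed direction. Of 28 named genes that were not DE, 4 were called in at least 1 alternative. Females of 1 family and condition correlated at 0.177 beyond their family, so calls over single females count too many independent animals, and the 12 families limit the precision. The cause of the differences between alternatives was not tested. Values near 0.349 cpm carry a large counting error.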
